A study of Mus musculus with 4 samples.

Results

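Mouse gene tables carry many loci that never received a descriptive name. Symbols made of Gm and a number stand for gene models predicted from the genome, and symbols ending in Rik stand for cDNAs of the RIKEN collection. Here the loci with such a symbol that had a value of at least 5 RPKM in at least 2 of 4 libraries were described, which gave 130 genes (94 Gm and 36 Rik) of the 22083 in the table. RPKM is a read count scaled to gene length and to the size of the library. Another 2401 genes with such symbols stayed below this level. The genes were selected on their RPKM values in these libraries, so abundance is a description and not a result. Just inside the limit, the second highest value of Gm20538 was 5.02 RPKM and that of Gm7367 was 5.04 RPKM. Just outside, it was 4.99 RPKM for 1190002N15Rik and 4.93 RPKM for Gm10260.

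ILC2s (group 2 innate lymphoid cells) reside in tissues and make type 2 cytokines without carrying antigen receptors. Of the libraries, 2 held ILC2s sorted from small intestinal lamina propria (SI-ILC2s) and 2 held ILC2s sorted from the white fat of the mesentery (WAT-ILC2s). All mice were wild-type C57BL/6, aged 9 weeks, and no treatment is named. The labels give total RNA as the molecule, while the design text speaks of mRNA profiles. Neither the sort markers nor whether the duplicates came from different mice is stated, so the spread behind each p-value is that between these 4 libraries and may be technical.

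Depth, read from the steps between low values of single-exon genes, was about 59500000 and 76400000 reads in SI-ILC2s and 55900000 and 65400000 reads in WAT-ILC2s. All 12 ILC2 markers examined (Gata3, Il1rl1 and others) were expressed, with summed levels of 1470 to 1513 RPKM in SI-ILC2s and 1145 to 1254 RPKM in WAT-ILC2s. The 5 adipocyte markers summed to 0.300 to 0.630 RPKM in SI-ILC2s and 4.02 to 4.90 RPKM in WAT-ILC2s. Fabp4 made up most of the WAT-ILC2 sum, with 4.32 and 3.43 RPKM there. Lep and Cfd had higher means in WAT-ILC2s but did not exceed 0.351 RPKM, and Adipoq and Plin1 had higher means in SI-ILC2s. The 5 fibroblast markers summed to 0.417 to 0.524 RPKM in SI-ILC2s, against 4.39 to 9.79 RPKM in WAT-ILC2s. Haemoglobin genes (3) summed to 11.2 to 35.3 RPKM in SI-ILC2s and 73.2 to 115.5 RPKM in WAT-ILC2s. The macrophage markers (3 of 4) summed to 1.65 to 3.49 RPKM in SI-ILC2s and 6.00 to 7.05 RPKM in WAT-ILC2s. Of these, Lyz2 had 0.633 and 0.331 RPKM in SI-ILC2s, against 3.53 and 5.50 RPKM in WAT-ILC2s, while Csf1r and Cd68 had slightly higher means in SI-ILC2s. The 3 mast cell markers summed to 0.378 to 0.424 RPKM in SI-ILC2s and 1.58 to 2.04 RPKM in WAT-ILC2s. Sums of the intestinal epithelium (5), endothelium (3), B cell (3) and T cell (4) markers did not exceed 11.02 RPKM in any library. No marker was at 0 in every library, and the part of these cells in the results below was not tested.

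Predicted genes are of several kinds, and the kind decides what a read count on them can mean. Some are stretches of satellite DNA, the tandem repeats of centromeric and pericentromeric chromatin, which are present in the genome in many near-identical copies. Some are processed pseudogenes, copies of an mRNA inserted elsewhere in the genome. Others are readthrough models that join the exons of neighbouring genes, models on the strand opposite to a known gene, or genes with a locus of their own whose function was named only later. By GENCODE M21 (build GRCm38), a list of satellite genes and overlap of at least 10% of exon bases, the 130 genes comprised 12 satellite-like genes, 26 readthrough models, 27 genes overlapped on the opposite strand, 3 overlapped on the same strand, 28 pseudogenes and 31 genes with their own locus. The remaining 3 (A630081J09Rik, Gm28062 and Gm5428) had no entry there.

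The satellite-like genes are shown first because they held most of the RPKM summed over the 130 genes, and because their sequences are so alike. The first 234 bases of the transcripts of the 3 most abundant follow, all annotated as coding. Capitals mark TTTTCAGTTTTC, the most frequent 12-base word over the 12 transcripts.
Gm10800, chr2:98666547-98667301 (minus strand): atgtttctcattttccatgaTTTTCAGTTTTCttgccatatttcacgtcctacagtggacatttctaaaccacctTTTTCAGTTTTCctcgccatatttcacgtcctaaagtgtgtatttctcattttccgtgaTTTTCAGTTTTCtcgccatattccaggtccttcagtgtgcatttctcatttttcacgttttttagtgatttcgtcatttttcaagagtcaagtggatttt
Gm10718, chr9:3023547-3025218 (plus strand): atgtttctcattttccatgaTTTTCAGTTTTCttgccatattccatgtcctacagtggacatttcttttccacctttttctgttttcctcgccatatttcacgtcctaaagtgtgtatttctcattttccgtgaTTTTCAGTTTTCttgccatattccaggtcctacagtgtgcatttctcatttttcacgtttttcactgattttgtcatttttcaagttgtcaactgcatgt
Gm21738, chr14:19415857-19418930 (minus strand): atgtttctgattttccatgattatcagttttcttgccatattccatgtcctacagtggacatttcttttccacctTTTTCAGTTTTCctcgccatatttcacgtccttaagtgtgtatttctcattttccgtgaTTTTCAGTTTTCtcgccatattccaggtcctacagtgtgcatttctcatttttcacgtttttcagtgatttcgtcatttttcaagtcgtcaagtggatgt

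Of the 12 genes, 9 lie side by side at the start of chromosome 9, 2 lie on chromosome 2 and 1 on chromosome 14. Their transcripts are 504 to 684 bases long and contain 64.0% to 65.7% A and T. The other 11 were 89.8% to 93.4% identical to Gm10800. Sliding each transcript along itself by 20 to 299 bases gave the best match at a shift of 234 bases in 9 of the 12, with 52.7% to 67.6% of bases matching at the best shift over all 12, against medians of 30.7% to 31.7% over the shifts tried. The word occurred 5 to 8 times in each transcript and never on the other strand. Searched on both strands in the first 504 bases of the longest transcript of 40350 genes, it was found in 29 genes (0.0719%), among them these 12.

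Satellite-like transcripts were higher in SI-ILC2s than in WAT-ILC2s, and the 2 WAT-ILC2 libraries differed from each other about as much as the tissues did. Gm10800 alone reached 8609 and 8745 RPKM in SI-ILC2s, against 2382 and 5103 RPKM in WAT-ILC2s. In SI-ILC2s that was 5.42% and 5.78% of the column sum, against 1.68% and 3.73% in WAT-ILC2s. The tissues did not overlap, and the SI-ILC2 libraries were close together while WAT-ILC2 replicate 1 was far below replicate 2. Summed over the 12 genes, the level was 13227 and 13533 RPKM in SI-ILC2s, against 3671 and 7961 RPKM in WAT-ILC2s. The means were 13380 ± 217 RPKM and 5816 ± 3033 RPKM (SD, n = 2 each), a ratio of 2.30 of SI-ILC2s over WAT-ILC2s. Set against WAT-ILC2 replicate 1 alone the ratio was 3.64, and against replicate 2 alone 1.68, while WAT-ILC2 replicate 2 over replicate 1 gave 2.17.

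**Figure D1:**
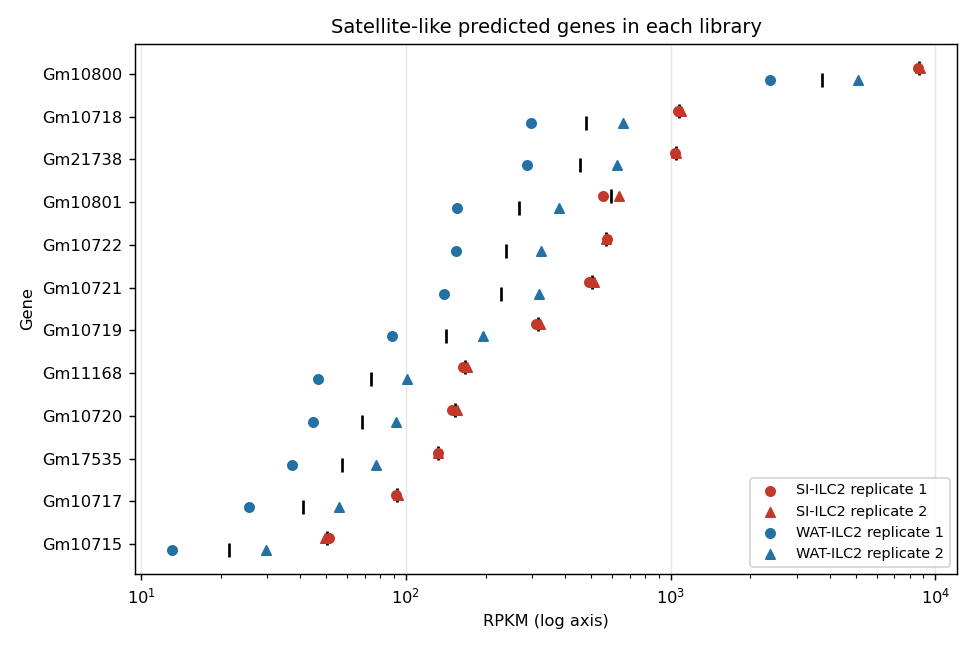
RPKM (log axis) of the 12 satellite-like genes in each of the 4 libraries, with SI-ILC2 points drawn above WAT-ILC2 points in each row and a black tick at the mean of each tissue. The SI-ILC2 points of each gene nearly coincide, and in every row WAT-ILC2 replicate 1 is the lowest.

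All 12 passed the test, with log2 changes of 1.24 to 1.35 on the log2(RPKM + 1) scale and adjusted p-values of 0.0192 to 0.0401 (limma). Gm10722 had the largest of these changes, with 573 and 572 RPKM in SI-ILC2s, against 154 and 324 RPKM in WAT-ILC2s (log2 difference 1.35 ± 0.34 SE, adjusted p = 0.0197). Gm10718 had 1063 and 1090 RPKM in SI-ILC2s, against 297 and 659 RPKM in WAT-ILC2s, and Gm21738 had 1036 and 1051 RPKM in SI-ILC2s, against 288 and 625 RPKM in WAT-ILC2s. The lowest was Gm10715, with 51.2 and 49.7 RPKM in SI-ILC2s, against 13.1 and 29.8 RPKM in WAT-ILC2s. Within a library the genes kept nearly the same proportions. Gm10718 stood at 12.3% to 12.9% of the Gm10800 level in the 4 libraries, Gm21738 at 12.01% to 12.25%, and Gm10801 at 6.45% to 7.43%. WAT-ILC2 replicate 2 exceeded replicate 1 by a factor of 2.05 to 2.43 in each gene, so the 12 calls repeat a single pattern of the 4 libraries and are not 12 separate results.

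Without WAT-ILC2 replicate 1 the log2 changes of the 12 genes were 0.65 to 0.82, and without WAT-ILC2 replicate 2 they were 1.75 to 1.93. Without SI-ILC2 replicate 1 they were 1.27 to 1.39, and without SI-ILC2 replicate 2 they were 1.19 to 1.35. With a WAT-ILC2 library left out, the spread comes from the SI-ILC2 pair alone. Calls from such fits cannot take in the gap between the WAT-ILC2 libraries and are not given for these genes. The sources used here do not give how reads that map to many places were counted, so levels of these near-identical copies cannot be told apart. In these bulk samples, fewer cells of a type and less RNA per cell cannot be told apart either.

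Over all 130 genes, 39 (30%) passed the test as higher in SI-ILC2s, 24 (18.5%) passed as lower and 67 did not pass (limma, adjusted p under 0.05). Of all 8230 genes tested, 17.9% passed toward SI-ILC2s and 29.6% toward WAT-ILC2s. Of the 3803 tested genes that met the same abundance limit and had other symbols, 22.5% passed toward SI-ILC2s and 30.3% toward WAT-ILC2s. With the satellite-like genes set apart, 27 of the other 118 (22.9%) passed toward SI-ILC2s and 24 (20.3%) toward WAT-ILC2s, with a median log2 change of 0.11. The median over all genes tested was -0.15, and over the abundant genes with other symbols it was -0.09. Both SI-ILC2 values exceeded both WAT-ILC2 values in 59 of the 130, the reverse held in 34, and the tissues overlapped in 37. The corresponding shares over all genes tested were 29.8% for both SI-ILC2 values above and 45.9% for both WAT-ILC2 values above, and over the abundant genes with other symbols they were 35.1% for SI-ILC2 values above and 43.8% for WAT-ILC2 values above.

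Some genes met the limit through a single tissue and so had to differ. This held for 8 genes that reached 5 RPKM only in SI-ILC2s and 10 that reached it only in WAT-ILC2s, and their values are given below as descriptions with no test. Another 17 genes reached 5 RPKM in 3 libraries, so the values of 1 tissue were enough for the limit. Of these 17, 7 passed toward SI-ILC2s and 0 toward WAT-ILC2s. The limit favoured this direction in the 7 (Gm20425, Gm20509, Gm20662, Gm10273, Gm10073, 2700060E02Rik and 2510039O18Rik), and their tests carry that selection. Of the 91 genes that reached 5 RPKM in all 4 libraries, 79 were not satellite-like, and 13 of these (16.5%) passed toward SI-ILC2s and 15 (18.99%) toward WAT-ILC2s. Among the 2536 genes with other symbols that reached 5 RPKM in all 4 libraries, 19.8% passed toward SI-ILC2s and 23.6% toward WAT-ILC2s. Both SI-ILC2 values lay above both WAT-ILC2 values in 31 of the 79 and below them in 23, while of those 2536 genes 35.4% had the SI-ILC2 values above and 39.6% the WAT-ILC2 values above. In these 79 genes the shares that passed the test were thus a little below the background, and a smaller share had both WAT-ILC2 values above. The difference between these shares was not tested.

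The split depended on the scaling of the libraries. Of the called genes among the 130, 61.9% were higher in SI-ILC2s as deposited, 73.5% after median-of-ratios scaling (50 toward SI-ILC2s and 18 toward WAT-ILC2s) and 50% after rescaling to equal column sums (27 each). Over all genes tested the corresponding shares were 37.6%, 51.8% and 28.0%, and the median log2 change was -0.15, 0.00 and -0.26. Leaving out SI-ILC2 replicate 1 or replicate 2 gave 21 or 22 genes higher in SI-ILC2s, against 39 with all libraries.

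**Figure D2:**
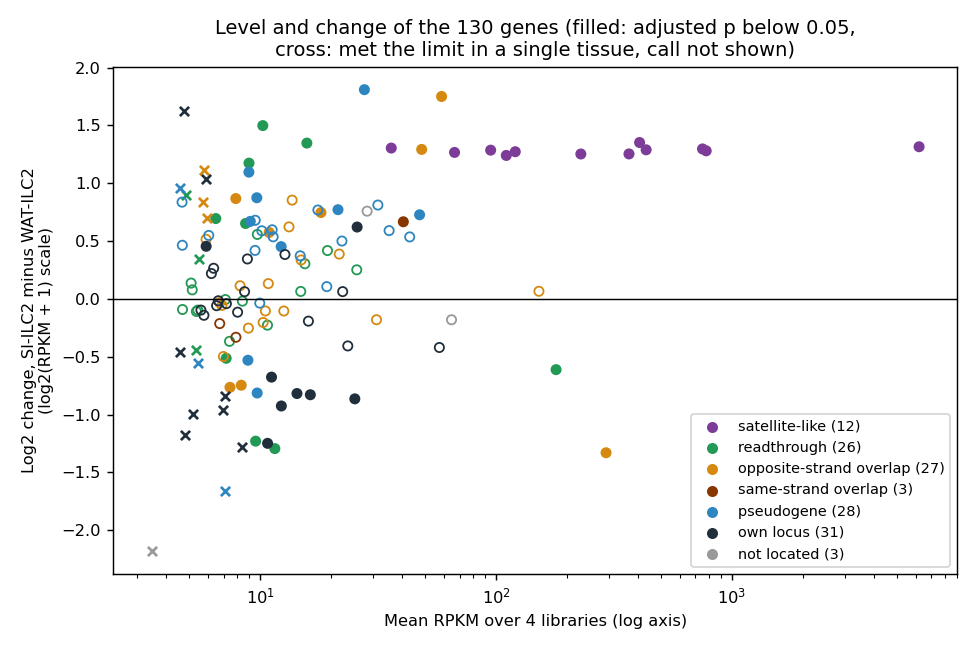
Log2 change (SI-ILC2 minus WAT-ILC2, log2(RPKM + 1) scale) against the mean RPKM over 4 libraries (log axis) for the 130 genes, coloured by kind, with filled points for adjusted p under 0.05 and crosses for genes that met the limit in a single tissue, whose test is not shown. The 12 satellite-like genes form a row between 1.24 and 1.35 over a wide range of levels, and the other kinds spread on both sides of 0.

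Readthrough models mostly had the direction of the gene that shares most of their exon bases (21 of 24 with a tested one). Of the 26 models, 6 passed the test toward SI-ILC2s and 4 toward WAT-ILC2s (5 and 4 without genes that met the limit in a single tissue), and 16 did not pass. These 6 (23.1%) and 4 (15.4%) stand beside the 22.5% toward SI-ILC2s and 30.3% toward WAT-ILC2s of abundant genes with other symbols. Of the 15 models that reached 5 RPKM in all 4 libraries, 2 (13.3%) passed toward SI-ILC2s and 4 (26.7%) toward WAT-ILC2s. Genes with other symbols that did so had 19.8% and 23.6%. The median log2 change was 0.07. The most abundant protein-coding entry outside the satellite-like genes was Gm20489 (chrX:101261405-101269023), which shares 53.9% of its exon bases with Il2rg, the common gamma chain of the receptors for IL-2, IL-7 and related cytokines, and 40.8% with Gm614. Gm20489 had 153 and 130 RPKM in SI-ILC2s, against 235 and 199 RPKM in WAT-ILC2s (log2 difference -0.61 ± 0.18 SE, adjusted p = 0.0318). Il2rg itself had 218 and 188 RPKM in SI-ILC2s, against 341 and 282 RPKM in WAT-ILC2s. Gm614, a predicted gene at the same locus, had only 6.96 and 6.70 RPKM in SI-ILC2s, against 7.57 and 10.3 RPKM in WAT-ILC2s (adjusted p = 0.159). The level of Gm20489 was therefore 0.690 to 0.707 times that of Il2rg in every library and 19.3 to 31.1 times that of Gm614. Its call was lost without SI-ILC2 replicate 1 (adjusted p = 0.118), SI-ILC2 replicate 2 (0.258) or WAT-ILC2 replicate 1 (0.0571).

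Changes toward SI-ILC2s among these models were led by Gm20425, Gm20388 and Gm20509. Gm20425 and Gm20509 reached 5 RPKM in both SI-ILC2 libraries but in only 1 WAT-ILC2 library, so the abundance limit favoured this direction. Gm20425 (chr9:103190208-103230307) joins Srprb, a subunit of the signal recognition particle receptor, to Trf, the iron carrier transferrin. It had 14.7 and 16.6 RPKM in SI-ILC2s, against 4.59 and 5.18 RPKM in WAT-ILC2s (log2 difference 1.498 ± 0.15 SE, adjusted p = 7.7e-04). Trf had 14.3 and 16.7 RPKM in SI-ILC2s, against 2.37 and 2.82 RPKM in WAT-ILC2s, and Srprb had 15.3 and 16.8 RPKM in SI-ILC2s, against 10.8 and 11.9 RPKM in WAT-ILC2s, so that in WAT-ILC2s the model lay between its parts. Gm20388 shares 97.5% of its exon bases with Galnt2, an enzyme that starts mucin-type O-glycosylation. It had 18.7 and 27.5 RPKM in SI-ILC2s, against 7.01 and 9.84 RPKM in WAT-ILC2s (log2 difference 1.35, adjusted p = 0.0050), and Galnt2 had 23.4 and 34.7 RPKM in SI-ILC2s, against 8.14 and 12.2 RPKM in WAT-ILC2s. Gm20509 joins Khdc3 and Rsl24d1, a ribosome biogenesis factor, and had 12.9 and 12.7 RPKM in SI-ILC2s, against 5.54 and 4.72 RPKM in WAT-ILC2s (log2 difference 1.17, adjusted p = 0.0016). Khdc3 did not exceed 0.201 RPKM in any library, while Rsl24d1 had 47.5 and 39.5 RPKM in SI-ILC2s, against 18.4 and 15.2 RPKM in WAT-ILC2s.

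Toward WAT-ILC2s, the readthrough models with the largest changes were Gm20605 and Gm21970. Gm21970 (chr16:91391721-91419451) joins Ifnar2 and Il10rb, chains of the receptors for type I interferon and for IL-10 family cytokines. It had 5.23 and 5.39 RPKM in SI-ILC2s, against 13.1 and 14.5 RPKM in WAT-ILC2s (log2 difference -1.23 ± 0.14 SE, adjusted p = 0.0012). Ifnar2 had 4.83 and 5.12 RPKM in SI-ILC2s, against 11.2 and 11.4 RPKM in WAT-ILC2s, and Il10rb had 5.17 and 4.85 RPKM in SI-ILC2s, against 11.5 and 13.8 RPKM in WAT-ILC2s. Gm20605 joins Lrch4 and Sap25 and had 5.33 and 7.14 RPKM in SI-ILC2s, against 13.9 and 19.7 RPKM in WAT-ILC2s (log2 difference -1.29 ± 0.21 SE, adjusted p = 0.0042). Gm20431 did not pass the test. It shares exons with Ube2v1, which was higher in SI-ILC2s (log2 difference 0.46, adjusted p = 0.0453), and Tmem189, which was lower (log2 difference -0.92, adjusted p = 0.0027). Gm20431 had 26.8 and 29.2 RPKM in SI-ILC2s, against 22.2 and 24.5 RPKM in WAT-ILC2s (adjusted p = 0.182).

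Set beside the gene that shares most of its exon bases, 24 of the 26 models had a tested counterpart. The direction was the same in 21, both were called in the same direction in 9, only the counterpart was called in 2, and no pair was called in opposite directions. Among the 9 is Gm20547, which met the limit in SI-ILC2s alone and had to differ. Of 24 models with at least 2 of their parts in the table, 11 lay between the lowest and the highest part in all 4 libraries. Since exons are shared on the same strand, reads from the joined model and from its parts cannot be told apart in these values.

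Genes on the opposite strand of a known gene gave the second kind of pair. Of the 27, 8 passed the test toward SI-ILC2s and 3 toward WAT-ILC2s (5 and 3 without genes that met the limit in a single tissue), and 16 did not pass. The shares of the 27, 29.6% and 11.1%, compare with 22.5% toward SI-ILC2s and 30.3% toward WAT-ILC2s among abundant genes with other symbols. Without genes that met the limit in a single tissue the shares were 20.8% and 12.5%. The 22.5% and 30.3% keep such genes and are not a like background for these. Of the 21 opposite-strand genes that reached 5 RPKM in all 4 libraries, 4 (19.05%) passed toward SI-ILC2s and 3 (14.3%) toward WAT-ILC2s. Genes with other symbols that did so had 19.8% and 23.6%. The sources used here do not give the strand setting of the counting, so reads of a gene and of its opposite-strand partner cannot be told apart. Gm20481 is shown because it lies wholly within Hspa1a, which encodes the inducible heat shock protein Hsp70. The first 60 coding bases of Gm20481 are the reverse complement of coding bases 1851 to 1910 of Hspa1a, with the start codon of Gm20481 in capitals in both.
Gm20481, chr17:34969912-34972136 (plus strand): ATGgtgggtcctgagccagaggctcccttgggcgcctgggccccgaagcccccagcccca
Hspa1a, chr17:34969190-34972156 (minus strand): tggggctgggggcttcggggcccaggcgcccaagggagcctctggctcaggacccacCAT

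Gm20481 had 109 and 73.4 RPKM in SI-ILC2s, against 29.4 and 22.8 RPKM in WAT-ILC2s (log2 difference 1.75 ± 0.23 SE, adjusted p = 0.0021). Hspa1a had 63.0 and 43.7 RPKM in SI-ILC2s, against 18.7 and 13.3 RPKM in WAT-ILC2s (log2 difference 1.67, adjusted p = 0.0025), so the predicted gene was listed at 1.58 to 1.73 times its host in every library. The replicates within SI-ILC2s ranked alike for both. Hspa1b, a near copy of Hspa1a, had 80.7 and 59.4 RPKM in SI-ILC2s, against 30.0 and 22.4 RPKM in WAT-ILC2s.

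The most abundant opposite-strand gene, and the most abundant of the 118 genes without satellite sequence, was Gm11175 (chr8:70699162-70700080), wholly antisense to Jund, a subunit of the AP-1 transcription factor. Gm11175 had 121 and 216 RPKM in SI-ILC2s, against 332 and 501 RPKM in WAT-ILC2s (log2 difference -1.33 ± 0.33 SE, adjusted p = 0.0181). Jund had 50.6 and 85.5 RPKM in SI-ILC2s, against 143 and 201 RPKM in WAT-ILC2s. Replicate 2 was above replicate 1 in both tissues for both genes. Without SI-ILC2 replicate 1 the change of Gm11175 was -0.91 (adjusted p = 0.109). Gm20721, opposite to Gnas, the stimulatory G protein alpha subunit, had 128 and 184 RPKM in SI-ILC2s, against 132 and 163 RPKM in WAT-ILC2s, with overlapping tissues (log2 difference 0.07, adjusted p = 0.825). Gnas overlapped as well, with 93.4 and 133 RPKM in SI-ILC2s, against 96.2 and 119 RPKM in WAT-ILC2s.

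Gm17509 (chr13:117218701-117221075) overlaps Emb, the membrane glycoprotein embigin, by 28.9% of its exon bases. It had 69.4 and 68.8 RPKM in SI-ILC2s, against 28.0 and 27.3 RPKM in WAT-ILC2s (log2 difference 1.29 ± 0.13 SE, adjusted p = 9.8e-04). Emb was far more abundant, with 607 and 569 RPKM in SI-ILC2s, against 245 and 234 RPKM in WAT-ILC2s, and changed by the same 1.29. A730015C16Rik, opposite to Kti12, an Elongator-associated protein, reached the limit in SI-ILC2s alone, with 8.41 and 8.06 RPKM there, against 3.10 and 3.44 RPKM in WAT-ILC2s. 2700060E02Rik (Rtraf, an RNA transcription, translation and transport factor) had 10.7 and 10.2 RPKM in SI-ILC2s, against 6.19 and 4.46 RPKM in WAT-ILC2s (log2 difference 0.87, adjusted p = 0.0085). Its opposite-strand neighbour Nid2 did not exceed 0.262 RPKM. 1110008F13Rik (Rab5if), opposite to Sla2, an adaptor protein of lymphocytes, had 13.3 and 10.8 RPKM in SI-ILC2s, against 15.1 and 11.1 RPKM in WAT-ILC2s (adjusted p = 0.674). Sla2 had 3.64 and 2.92 RPKM in SI-ILC2s, against 7.34 and 6.74 RPKM in WAT-ILC2s (log2 difference -0.91, adjusted p = 0.0047), and the overlap covered 25.5% of the exon bases of 1110008F13Rik.

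Of the 20 opposite-strand genes with a tested partner, 19 had the direction of the partner and 7 were called with it, while 4 partners were called alone and 1 gene was called without its partner. That gene, 4930535I16Rik, opposite to Rragc, met the limit in SI-ILC2s alone. So did A730015C16Rik and Gm10382, which are among the 7 called with the partner and had to differ. In the 10 genes overlapped over at least 90% of their exon bases, all 10 had the direction of the partner, and the log2 changes differed by a median of 0.10 and at most 0.20. Of these 10 pairs, 3 were called together and 5 had neither gene called. Among the 3 genes overlapped on the same strand, Gm16286, which shares 14.9% of its exon bases with Txnl4a, a spliceosome component, had 48.2 and 51.5 RPKM in SI-ILC2s, against 29.2 and 32.8 RPKM in WAT-ILC2s (log2 difference 0.67 ± 0.14 SE, adjusted p = 0.0111). That call was lost without SI-ILC2 replicate 1 (adjusted p = 0.0622) or replicate 2 (0.0850). 1500012F01Rik (Zfas1), a non-coding host gene of small nucleolar RNAs, had 6.72 and 5.21 RPKM in SI-ILC2s, against 10.3 and 4.70 RPKM in WAT-ILC2s, and the tissues overlapped (adjusted p = 0.605).

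Of the 28 pseudogenes, 26 had a tested closest relative, and all 26 had its direction. Of the 28, 8 passed the test toward SI-ILC2s and 4 toward WAT-ILC2s (7 and 2 without genes that met the limit in a single tissue), and 16 did not pass. That is 28.6% toward SI-ILC2s and 14.3% toward WAT-ILC2s, where abundant genes with other symbols had 22.5% and 30.3%. Of the 18 pseudogenes that reached 5 RPKM in all 4 libraries, 5 (27.8%) passed toward SI-ILC2s and 2 (11.1%) toward WAT-ILC2s. Genes with other symbols that did so had 19.8% and 23.6%. The median log2 change was 0.57. Gm10116, a copy of the ferritin light chain gene Ftl1 that RefSeq calls Ftl1-ps1, is shown because it had the largest change of the pseudogenes. In a stretch of 120 coding bases (385 to 504 in both), capitals mark the only 2 bases at which the compared 549 coding bases differ.
Gm10116, chr13:74399694-74407346 (plus strand): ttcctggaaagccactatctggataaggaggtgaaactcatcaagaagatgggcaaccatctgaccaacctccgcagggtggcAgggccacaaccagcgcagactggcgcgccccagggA
Ftl1, chr7:45457944-45459884 (minus strand): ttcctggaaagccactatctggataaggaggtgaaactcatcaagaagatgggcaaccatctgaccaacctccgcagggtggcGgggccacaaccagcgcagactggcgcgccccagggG

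Gm10116 had 46.5 and 40.6 RPKM in SI-ILC2s, against 12.3 and 11.2 RPKM in WAT-ILC2s (log2 difference 1.81 ± 0.15 SE, adjusted p = 4.9e-04). Ftl1, which encodes the light subunit of the iron store ferritin, had 648 and 560 RPKM in SI-ILC2s, against 161 and 140 RPKM in WAT-ILC2s (log2 difference 2.00). In every library Gm10116 was listed at 7.17% to 7.98% of the Ftl1 level. Neither gene overlapped between tissues.

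In the other direction, Gm6169, a copy of Plp2, which encodes a membrane proteolipid, reached the limit in WAT-ILC2s alone, with 3.05 and 2.67 RPKM in SI-ILC2s, against 13.7 and 9.05 RPKM in WAT-ILC2s. Plp2 had 15.5 and 13.2 RPKM in SI-ILC2s, against 65.0 and 41.4 RPKM in WAT-ILC2s. Gm9847, a copy of Socs2, a suppressor of cytokine signalling, had 6.97 and 6.56 RPKM in SI-ILC2s, against 13.4 and 11.9 RPKM in WAT-ILC2s (log2 difference -0.81 ± 0.14 SE, adjusted p = 0.0051). Socs2 had 24.7 and 21.99 RPKM in SI-ILC2s, against 45.0 and 48.9 RPKM in WAT-ILC2s. Gm10273, a copy of Timm23 of the mitochondrial import machinery, had 13.5 and 11.6 RPKM in SI-ILC2s, against 6.14 and 4.59 RPKM in WAT-ILC2s (log2 difference 1.10 ± 0.18 SE, adjusted p = 0.0039).

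The 26 pseudogenes with a tested relative were 93.9% to 100% identical to it, 19 of them at 99% or more. All 26 had the direction of the relative, 10 were called with it, 3 relatives were called alone, and in 13 pairs neither was called. Among the 10 are Gm6169 and Gm9844, which met the limit in WAT-ILC2s alone and had to differ. Log2 changes of pseudogene and relative differed by a median of 0.08 and at most 0.19. Reads of copies this alike cannot be told apart without knowing how multi-mapped reads were treated. For 13 of these pseudogenes the relative encodes a protein of the cytosolic ribosome. Rps2 is the relative of Gm5786, Gm6576 and Gm8225, and Rpl29 that of Gm10709 and Gm17669, so some of the 13 share a relative. These pseudogenes had log2 changes of 0.46 to 0.87, and 3 of the 13 (Gm10020, Gm9493 and Gm10073) passed the test. Gm10020, a copy of Rpl15, had 63.3 and 54.4 RPKM in SI-ILC2s, against 43.9 and 27.9 RPKM in WAT-ILC2s (adjusted p = 0.0409). In 12 of the 13, replicate 1 exceeded replicate 2 within both tissues, as in Gm8730, a copy of Rplp0, with 49.1 and 29.8 RPKM in SI-ILC2s, against 34.0 and 13.3 RPKM in WAT-ILC2s (adjusted p = 0.164). The call of Gm10020 was lost without SI-ILC2 replicate 1 (adjusted p = 0.164), SI-ILC2 replicate 2 (0.0688) or WAT-ILC2 replicate 2 (0.116), that of Gm9493 without SI-ILC2 replicate 1 (0.173) or WAT-ILC2 replicate 2 (0.104), and that of Gm10073 without SI-ILC2 replicate 1 (0.107).

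A pair of pseudogenes was listed far above the closest annotated gene. Gm9830 (chr9:44464243-44464599) reached the limit in SI-ILC2s alone, with 6.84 and 5.89 RPKM there, against 3.14 and 2.44 RPKM in WAT-ILC2s, while its closest relative Olfr482, an olfactory receptor gene, did not exceed 0.0344 RPKM. Gm21092 had 9.32 and 13.5 RPKM in SI-ILC2s, against 5.84 and 7.65 RPKM in WAT-ILC2s (log2 difference 0.67, adjusted p = 0.0411), and its closest relative Cdh11, a cadherin, did not exceed 0.124 RPKM. The call of Gm21092 was lost without SI-ILC2 replicate 2 (adjusted p = 0.208).

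**Figure D3:**
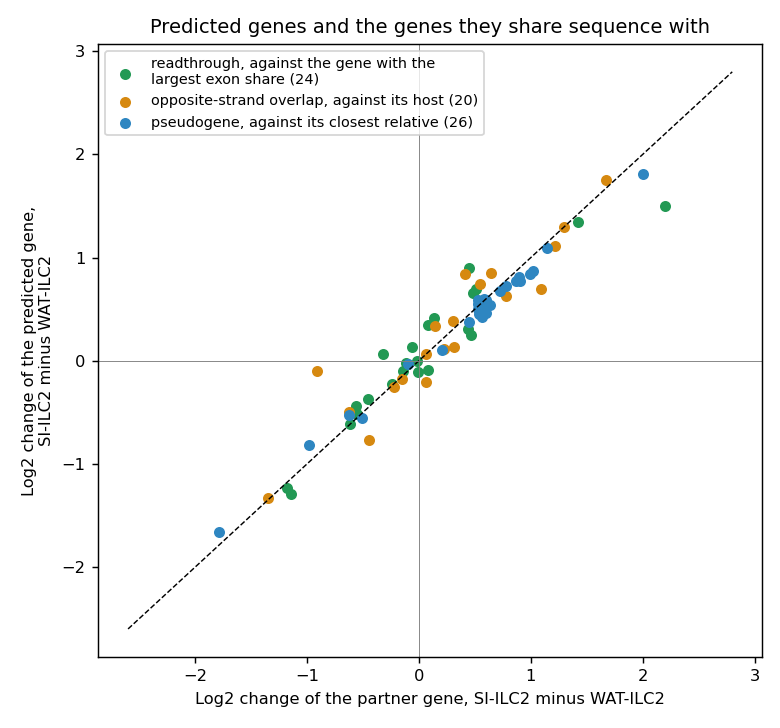
Log2 change (SI-ILC2 minus WAT-ILC2) of readthrough models, opposite-strand genes and pseudogenes against that of the gene with which each shares sequence, with the line of equal change dashed. Pseudogenes (26) lie within 0.19 of the line, while some readthrough (24) and opposite-strand (20) pairs lie farther away.

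Genes with a locus of their own are the ones for which the level can be read with the fewest overlaps. Copies elsewhere in the genome were not excluded. Gm10094 was 100% identical to Sap18 over the aligned bases, Gm4070 99.97% to Gvin1 and Gm4737 99.7% to Ahcy. Reads of such copies cannot be told apart here either. Of the 31 protein-coding genes with their own locus, 4 passed the test toward SI-ILC2s and 12 toward WAT-ILC2s (2 and 6 without genes that met the limit in a single tissue), and 15 did not pass. The 4 (12.9%) and 12 (38.7%) stand beside 22.5% and 30.3% of abundant genes with other symbols. Of the 21 that reached 5 RPKM in all 4 libraries, 1 passed toward SI-ILC2s, 6 (28.6%) passed toward WAT-ILC2s and 14 were not called, beside the 19.8% and 23.6% of genes with other symbols named above.

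Among those 6, 3110002H16Rik (Rmc1), part of the complex that activates the endosomal GTPase Rab7, had 11.6 and 11.3 RPKM in SI-ILC2s, against 22.3 and 20.01 RPKM in WAT-ILC2s (log2 difference -0.83 ± 0.14 SE, adjusted p = 0.0043). 9030624J02Rik (Vps35l), a subunit of the Retriever complex of endosomal recycling, had 7.39 and 9.28 RPKM in SI-ILC2s, against 11.8 and 16.2 RPKM in WAT-ILC2s (log2 difference -0.68, adjusted p = 0.0306). Without SI-ILC2 replicate 1 its adjusted p was 0.158, and without WAT-ILC2 replicate 2 it was 0.0714. 1810013L24Rik had 8.66 and 7.69 RPKM in SI-ILC2s, against 16.9 and 15.9 RPKM in WAT-ILC2s (log2 difference -0.93 ± 0.14 SE, adjusted p = 0.0032). 4930523C07Rik had 17.7 and 17.4 RPKM in SI-ILC2s, against 33.0 and 32.6 RPKM in WAT-ILC2s (log2 difference -0.86 ± 0.13 SE, adjusted p = 0.0033). The tissues did not overlap in any of these 4 genes. 1810011H11Rik (Tmem273), which encodes a transmembrane protein, had 10.98 and 9.12 RPKM in SI-ILC2s, against 21.2 and 15.9 RPKM in WAT-ILC2s (adjusted p = 0.0129), and without SI-ILC2 replicate 2 its adjusted p was 0.0662. Gm10094 (Sap18b), a copy of Sap18 of the Sin3 histone deacetylase complex, had 5.83 and 6.05 RPKM in SI-ILC2s, against 17.2 and 13.95 RPKM in WAT-ILC2s (log2 difference -1.25, adjusted p = 0.0016). Sap18 itself, identical over the aligned bases, had 14.9 and 14.6 RPKM in SI-ILC2s, against 45.9 and 35.0 RPKM in WAT-ILC2s.

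4933434E20Rik (chr3:90051636-90068347) was the gene of its own locus that reached the limit in all 4 libraries and was higher in SI-ILC2s, with 34.2 and 28.5 RPKM there, against 23.6 and 16.8 RPKM in WAT-ILC2s (log2 difference 0.62 ± 0.20 SE, adjusted p = 0.0421). Its call was lost without SI-ILC2 replicate 1 (adjusted p = 0.202), SI-ILC2 replicate 2 (0.0642) or WAT-ILC2 replicate 2 (0.135).

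Several genes of this kind with a known role did not pass the test. 4632428N05Rik (Vsir), the inhibitory checkpoint receptor VISTA, had 16.01 and 13.04 RPKM in SI-ILC2s, against 12.4 and 9.44 RPKM in WAT-ILC2s (log2 difference 0.38 ± 0.18 SE, adjusted p = 0.127). Both SI-ILC2 values were the higher ones. 3110043O21Rik (C9orf72), which takes part in autophagy and membrane trafficking, had 10.3 and 9.65 RPKM in SI-ILC2s, against 7.67 and 7.63 RPKM in WAT-ILC2s (log2 difference 0.35 ± 0.13 SE, adjusted p = 0.0749). 2310036O22Rik (Trir), an RNase that interacts with telomerase RNA, had 16.4 and 13.2 RPKM in SI-ILC2s, against 20.1 and 14.3 RPKM in WAT-ILC2s (adjusted p = 0.458). Gm21887, the most abundant gene of this kind, had 45.0 and 53.2 RPKM in SI-ILC2s, against 66.0 and 65.7 RPKM in WAT-ILC2s (log2 difference -0.42, adjusted p = 0.0609). 9530068E07Rik gave nearly the same values in both tissues, with 20.5 and 25.3 RPKM in SI-ILC2s, against 19.3 and 24.4 RPKM in WAT-ILC2s (log2 difference 0.06 ± 0.18 SE). Of a list of 21 RIKEN-named genes with a role known under a later symbol, 18 were in the table and 6 met the abundance limit. Of these 6, 2700060E02Rik was called, higher in SI-ILC2s, and none was called higher in WAT-ILC2s. Among the listed genes below the limit, 1190002N15Rik (log2 difference -0.77, adjusted p = 0.0169) and E430025E21Rik (-0.49, adjusted p = 0.0432) were called higher in WAT-ILC2s. Over all genes tested, 17.9% passed toward SI-ILC2s and 29.6% toward WAT-ILC2s.

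Genes of their own locus that met the limit in a single tissue are given as values only. 4930503L19Rik had 7.54 and 7.77 RPKM in SI-ILC2s, against 1.62 and 2.00 RPKM in WAT-ILC2s. 1810026J23Rik (Timm29), of the TIM22 complex for import into the inner mitochondrial membrane, had 7.34 and 9.21 RPKM in SI-ILC2s, against 3.23 and 3.77 RPKM in WAT-ILC2s. On the WAT-ILC2 side, 1810030O07Rik had 3.98 and 4.95 RPKM in SI-ILC2s, against 11.1 and 13.4 RPKM in WAT-ILC2s. Also higher there was 1110057K04Rik (Ldah), a lipid droplet-associated hydrolase, with 3.11 and 3.18 RPKM in SI-ILC2s, against 7.97 and 6.57 RPKM in WAT-ILC2s. 2610020H08Rik (Rexo5), an RNA exonuclease, had 3.02 and 2.12 RPKM in SI-ILC2s, against 7.81 and 6.29 RPKM in WAT-ILC2s. Gm4070, 99.97% identical to Gvin1 of the family of very large interferon-inducible GTPases, had 4.82 and 3.95 RPKM in SI-ILC2s, against 10.5 and 8.498 RPKM in WAT-ILC2s.

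**Figure D4:**
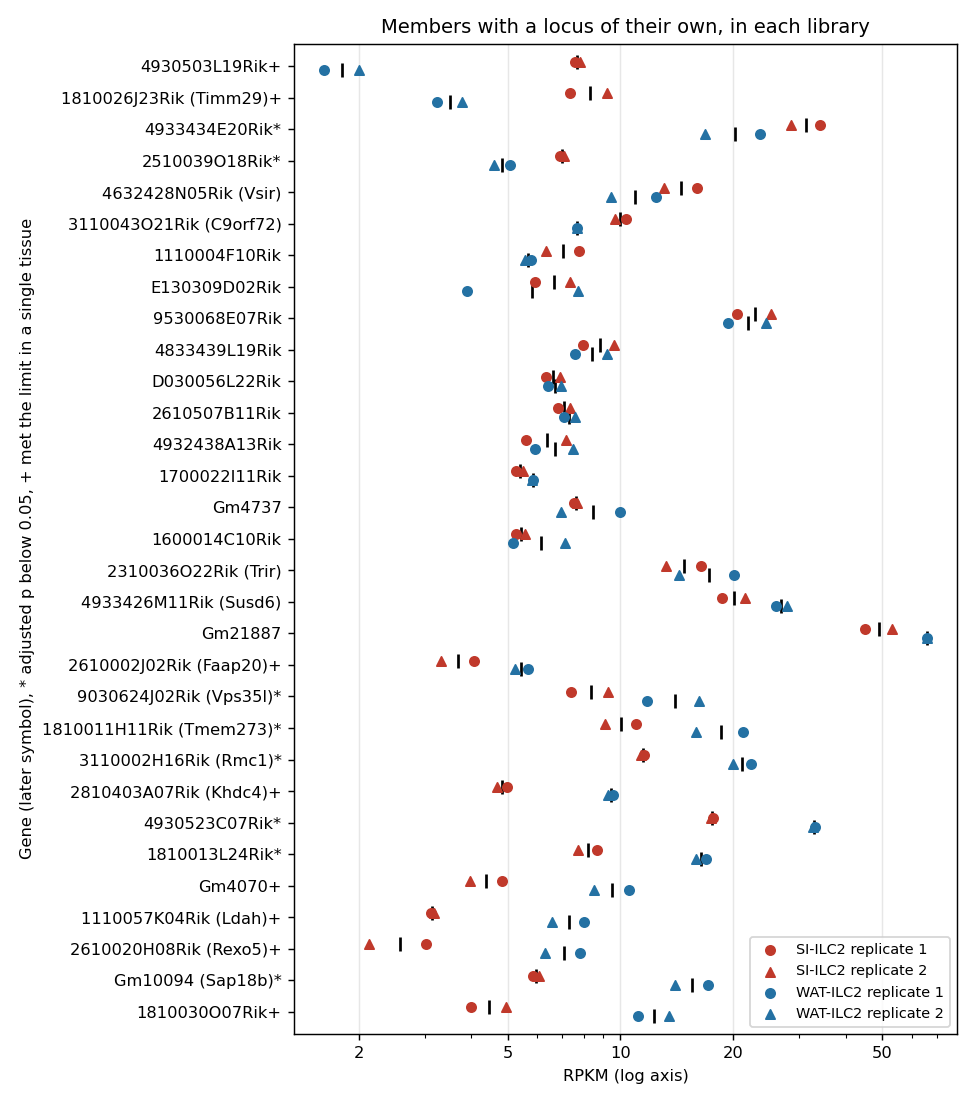
RPKM (log axis) of the 31 genes with a locus of their own in each library, ordered by log2 change, with SI-ILC2 points above WAT-ILC2 points in each row, black ticks at tissue means, asterisks for adjusted p under 0.05 and plus signs for genes that met the limit in a single tissue, whose test is not shown. Asterisks stand at 8 genes, 2 toward SI-ILC2s and 6 toward WAT-ILC2s.

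Of the 3 genes with no entry in the annotation, A630081J09Rik differed most between the tissues of all 130 genes. It met the limit in WAT-ILC2s alone, with 0.503 and 0.721 RPKM in SI-ILC2s, against 7.15 and 5.51 RPKM in WAT-ILC2s. Gm28062 had 58.7 and 62.6 RPKM in SI-ILC2s, against 68.0 and 69.6 RPKM in WAT-ILC2s (adjusted p = 0.324). Gm5428 had 39.2 and 31.8 RPKM in SI-ILC2s, against 27.0 and 15.5 RPKM in WAT-ILC2s, and narrowly missed the threshold (log2 difference 0.76 ± 0.26 SE, adjusted p = 0.0539).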

How the data were processed

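ILC2s from 2 tissues of mice were sequenced in duplicate. The authors deposited RPKM values per gene as 1 table whose 4 columns are the libraries. Per the submitters' processing notes, STAR 2.6.0 and featureCounts 1.6.0 of Subread were run on the build GRCm38 (mm10). Not given in the sources used here are the annotation, the strand setting and the treatment of multi-mapped reads.

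Groups came from the sample titles, which matched the columns. RPKM values are not counts, so genes with at least 1 RPKM in at least 2 libraries (8230) were compared as log2(RPKM + 1) with limma 3.58.1 under R 4.3.3 (difference SI-ILC2 minus WAT-ILC2, 2-sided, variance trend, no covariate), with Benjamini-Hochberg adjustment over all of them and a threshold of 0.05. All adjusted p-values are from this test. An exact permutation test of 2 libraries against 2 gives no p below 0.333. All 130 genes passed this filter. Differences on this scale understate those of low genes. The steps were tested on simulated data. Depth was estimated from single-exon genes, in which 87.3% to 89.2% of low values were whole reads within 0.1, against 20% by chance, and it bears on counting error only.

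Of the 130 genes, 109 were located in GENCODE M21 by symbol and 18 by a later RefSeq symbol. A gene was a pseudogene where GENCODE or RefSeq says so. Closest relatives came from blastn 2.17.0 against GENCODE transcripts, with at least 50% of the transcript aligned. Only genes of the table without a Gm or Rik symbol and without shared exon bases were taken, so closer copies may have been left out. Sequences are those of the GENCODE M21 transcripts. A masked share of exons was not computed. The members and lists were chosen with earlier results of these data known, and the 10% overlap limit, the 50% limit and the position kinds after values were seen. Named genes were, in each class, the 6 most abundant, the 8 with the largest called change in each direction among genes without overlap between the tissues, and the role list. Further genes, partners and relatives are examples chosen after their values were seen. Alternatives covered the pseudocount, the filter, 4 scalings, limma's robust option, a replicate block and each library left out.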

Additional observations from a re-analysis of the deposited data

How the results depend on the processing

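Under 13 alternatives, 25 of the 43 called named genes kept their call in every one, and none of the 43 turned its direction. Both counts include genes that met the limit in a single tissue and had to differ, such as A630081J09Rik and 4930503L19Rik. Many of the 43 were also named for their large called changes, so the counts are a description of chosen genes. Of the other 15 named genes, 8 turned direction under some alternative, and none of these 8 was called under an alternative that turned it. When each library was left out in turn, log2 changes ranged from -0.311 to 0.102 in 1110008F13Rik, -0.707 to 0.281 in 1500012F01Rik, -0.420 to 0.0361 in 2310036O22Rik, -0.722 to 0.217 in Gm15821, -0.195 to 0.327 in Gm20721, -0.0115 to 1.01 in Gm5786 and -0.0145 to 1.196 in Gm8225. Of these, 1500012F01Rik, Gm15821, Gm5786 and Gm8225 passed the test with 1 of the libraries left out, in the direction reported. Median-of-ratios scaling gave 0.0729 in 1110008F13Rik and 0.0085 in Gm28062. In Gm20721, equal column sums gave -0.0876, equal sums without satellite-like genes -0.0199 and quantile normalization -0.105. The 39 genes higher in SI-ILC2s became 25 with no filter on low values and 67 with the replicate number as a block, and ranged from 21 to 55 when each library was left out. The 24 genes higher in WAT-ILC2s ranged from 17 to 24 when each library was left out, and were 31 with the block. Same-numbered libraries deviated together (r = 0.57 across 8230 genes, which are not independent replicates), but 2 pairs and unexplained numbers do not establish pairing, so the block is an alternative only. The log2 ratio of summed satellite-like RPKM, 1.20, was 0.41 after quantile normalization and 0.75 to 1.87 with libraries left out. The cause of these changes was not tested. Of the 12 satellite-like calls, 7 were lost with quantile normalization, 6 with no filter, 3 with equal column sums, 2 with equal sums that leave these genes out, and 8 when SI-ILC2 replicate 1 or replicate 2 was left out. Depth limits the genes with few reads, such as Gm17617, with about 17 to 26 reads in a library.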
